A study of Mus musculus with 6 samples.

Results

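Expression of 10 genes that encode extracellular or membrane-bound inhibitors of Wnt signalling was compared between mouse fibroblasts with the Delta9 allele of Lmna and wild-type (WT) fibroblasts. The genes are the secreted frizzled-related proteins Sfrp1, Sfrp2, Sfrp4, Sfrp5 and Frzb, the Dickkopf proteins Dkk1, Dkk2 and Dkk3, the Wnt inhibitory factor Wif1 and the Dickkopf receptor Kremen1. They were chosen by name, as probe sets annotated to exactly 1 of these symbols, and all 10 were found among the 18193 named genes. The 10 genes had 20 probe sets, and the probe set that was brightest on average across the 6 arrays stands for each gene. Kremen1 is a membrane protein and so, unlike the others, is not itself a secreted antagonist.

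Wnt proteins are secreted ligands that bind frizzled receptors together with the co-receptors Lrp5 and Lrp6, which leads to stabilisation of beta-catenin and transcription through TCF and LEF factors. The Sfrp proteins carry a frizzled-like cysteine-rich domain and bind Wnt ligands outside the cell, as Wif1 does through its own WIF domain. Dkk1 and Dkk2 bind the co-receptors instead, and Kremen1 acts with them in removing Lrp6 from the cell surface, whereas Dkk3 is a divergent relative whose part in Wnt signalling is less clear. In connective tissue several of these genes are expressed by fibroblasts themselves.

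There were 3 Delta9 and 3 WT samples, each hybridised to its own Affymetrix array, and all came from the strain background labelled C57bl6X129S3/J. Lmna encodes lamins A and C of the nuclear lamina, and the labels name the Delta9 allele without its zygosity. Both groups were primary cultures at passage 3, grown from sibling animals and starved of serum for 72 hours ahead of RNA extraction. The cells are adult by the labels but post-natal by the design text. The number of animals behind the replicates is not stated, and p-values then reflect only how these samples vary. Values are the deposited log2 expression values, and a level on one probe set cannot be set against a level on another, because probes differ in their affinity.

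The targeted gene went with the labels on its brightest probe set, where Lmna read 7.07, 6.95 and 6.11 in Delta9 replicates 1, 2 and 3, against 8.35, 8.89 and 8.78 in WT. Of the 5 Lmna probe sets, 4 read lower in Delta9 and the dim 1452212_at differed by 0.22. Where the brightest probe set lies relative to the altered part of Lmna was not determined here. The cultures carried fibroblast markers, with 10 of 10 measured markers above the median level of all genes, but also macrophage markers, with 13 of 14 above it. Skeletal muscle markers had 4 of 6 above it, Schwann cell markers 2 of 2, chondrocyte markers 3 of 4, endothelial markers 2 of 7, keratinocyte markers 2 of 6 and adipocyte markers 1 of 3. The skeletal muscle markers averaged 5.89, 4.72 and 5.26 in Delta9 replicates 1, 2 and 3, against 5.13, 6.02 and 5.29 in WT. All 10 fibroblast markers had lower values in Delta9, by a median of -0.24, where 53.2% of all genes were lower in value. The macrophage markers were unequal between the arrays: their mean was 9.64, 9.48 and 10.00 in Delta9 replicates 1, 2 and 3, against 9.55, 8.86 and 7.37 in WT. Of these markers, 14 of 14 had a higher value in Delta9, where 8516 of all 18193 genes were higher in value. The poly-A spike-in controls that accompany the RNA through labelling averaged 5.67, 5.65 and 4.87 in Delta9, against 4.55, 5.51 and 5.25 in WT, so Delta9 replicate 3 and WT replicate 1 stood below the other 4 arrays by a gap only a little wider than the one between themselves. Pericyte and smooth muscle markers, 5 of 6 above the median of all genes, averaged 8.23, 8.08 and 6.69 in Delta9, against 7.84, 8.09 and 8.50 in WT, so Delta9 replicate 3 stood lowest there. The 4 chondrocyte markers had lower values in Delta9, 3 of them without overlap, against 9.99% of all genes lower without overlap. The 3 adipocyte markers had higher values, 1 of them, Fabp4, without overlap, against 7.27% of all genes higher without overlap. The probe sets for the 3' and 5' ends of Gapdh, a measure of RNA quality, differed by 0.25, 0.23 and 0.57 in Delta9, against 0.57, 0.49 and 0.51 in WT. The beta-actin probe sets differed likewise by 0.68, 0.51 and 0.84 in Delta9, against 0.86, 0.82 and 1.41 in WT, with WT replicate 3 apart from the rest.

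No Wnt antagonist passed an adjusted p of 0.05 in limma's test over all genes, but the genes did not all lie alike. Sfrp1 was lower in Delta9 by the widest margin, with a difference of -1.35 (log2), followed by Sfrp2 with -0.76 and Dkk3 with -0.68. Dkk2 ran the other way, with a difference of 0.64. The count of 0 of 10 stands beside 11 of 18193 genes called in the whole table, or 0.0605%. At an unadjusted p under 0.05 in limma there were 4 of the 10, namely Sfrp1, Dkk3 and Wif1 lower and Dkk2 higher, where 10.6% of all genes reached it, 6.06% lower and 4.54% higher. The groups did not overlap for 5 of the 10, Sfrp1, Sfrp5, Dkk3 and Wif1 lower in Delta9 and Dkk2 higher, against 17.3% of all genes, 9.99% lower and 7.27% higher. In value, without a test, 7 of the 10 were lower, against 53.2% of all genes, and the median difference of the 10 was -0.21, against -0.01 over all genes.

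**Figure D1:**
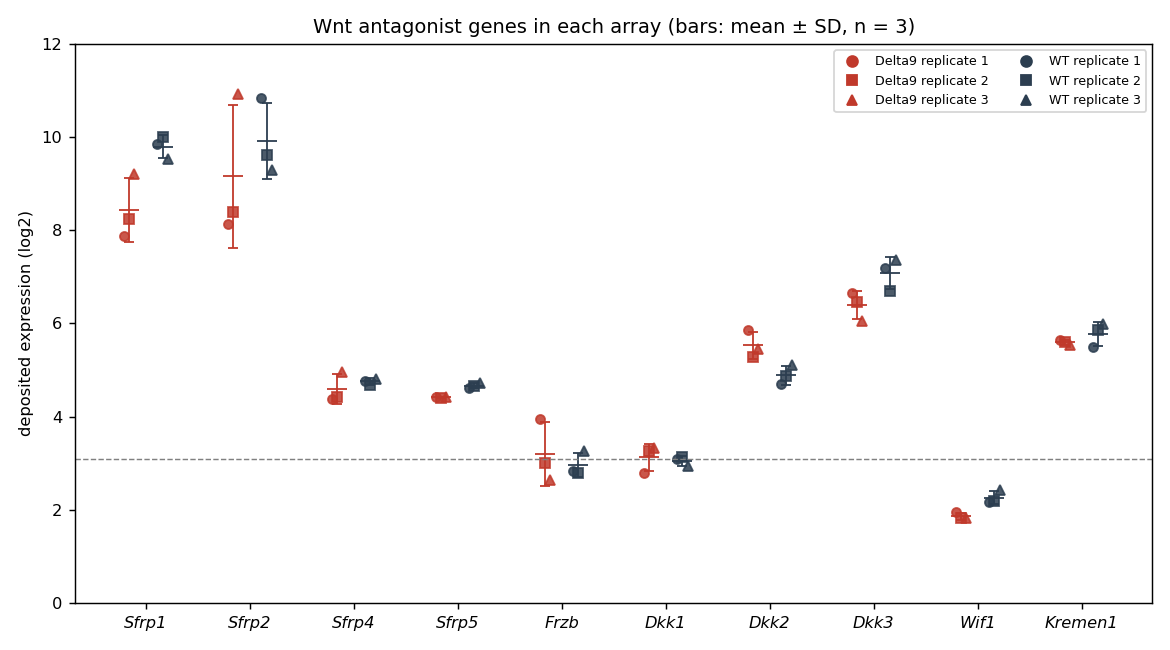
Deposited expression (log2) of the 10 Wnt antagonist genes in each array, Delta9 in red left of WT in dark blue, with the mean and SD of each group of 3; the dashed line is a level of 3.10, under which 90% of the olfactory receptor genes on the array lie. Sfrp1, Sfrp5, Dkk3 and Wif1 lie lower in all 3 Delta9 samples and Dkk2 higher, while the other 5 overlap.

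**Figure D2:**
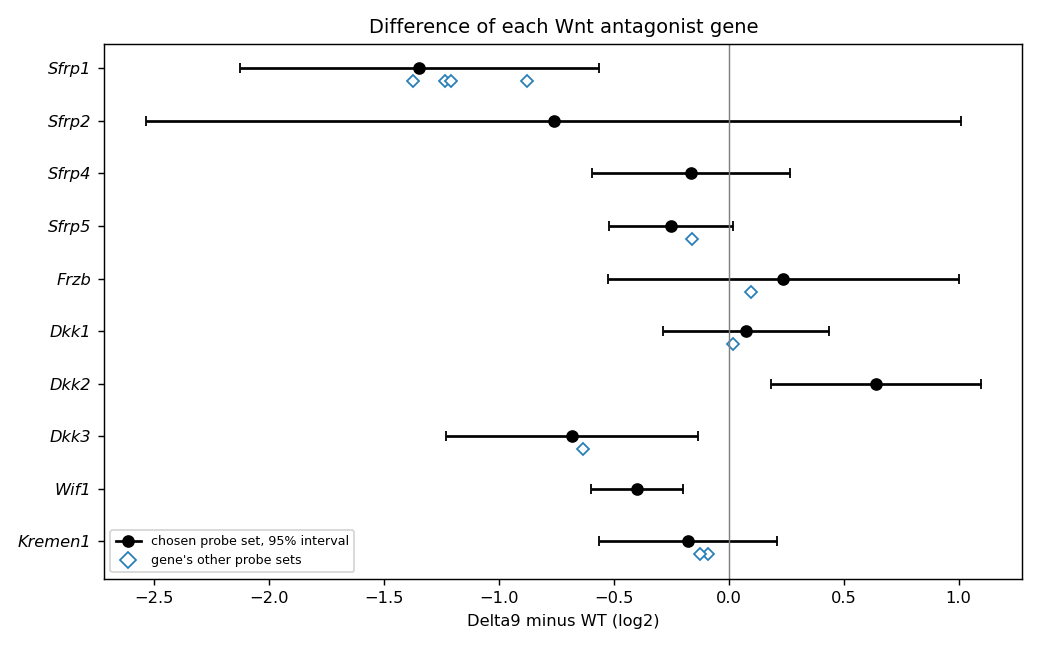
Difference between Delta9 and WT (log2) for each gene on its chosen probe set (black, with the 95% interval of limma's test) and on the gene's other probe sets (blue diamonds). The interval of Sfrp1 runs from -2.13 to -0.57 and that of Dkk2 from 0.18 to 1.10, and every one of the 10 other probe sets has the sign of its gene's chosen one.

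Sfrp1, the best studied of the Sfrp proteins, which binds Wnt ligands and can also bind frizzled receptors, read 7.88, 8.25 and 9.21 in Delta9 replicates 1, 2 and 3, against 9.84, 10.01 and 9.52 in WT. All 3 Delta9 samples were below all 3 WT samples, with Delta9 replicate 3 nearest to them. The means were 8.44 ± 0.69 in Delta9 and 9.79 ± 0.25 in WT (SD, n = 3 each). The level was thus 2.54-fold lower, with a standard error (SE) of 0.33 on the log2 difference. In limma the unadjusted p was 0.00457 and the adjusted p 0.261, so Sfrp1 did not pass. In such mixed cultures, fewer cells of a type and less RNA per cell cannot be told apart. Without Delta9 replicate 3 the difference was -1.73 (SE 0.19) and passed in limma with an adjusted p of 0.0255. Without Delta9 replicate 1 it was smallest in size, at -1.06 (SE 0.31, adjusted p 0.551 in limma). Leaving out any other single sample also gave no pass for Sfrp1. Delta9 replicate 3 is also the array with the lowest smooth muscle marker mean. Some matrix genes shared with Sfrp1 that Delta9 replicate 3 was the highest of its group, and were chosen here after their values were seen. Of these, Lum and Dcn overlapped between the groups, unlike Sfrp1. The fibroblast markers Lum and Dcn, both matrix proteoglycans, read 6.75, 6.004 and 8.25 (Lum) and 10.15, 9.87 and 10.96 (Dcn) in Delta9, against 8.21, 7.96 and 8.04 (Lum) and 11.31, 10.91 and 11.10 (Dcn) in WT. The cartilage and tendon matrix gene Comp read 4.52, 5.19 and 7.61 in Delta9, against 10.52, 9.81 and 9.95 in WT. Other markers of the same lists went the other way. Delta9 replicate 3 was the lowest of its group for the fibroblast markers Col1a1, Col1a2, Pdgfrb, Thy1 and Vim and for the cartilage gene Col2a1. The part of all these markers in the Sfrp1 values was not tested. With the macrophage marker mean as a covariate the Sfrp1 difference was -1.66 (SE 0.42, adjusted p 0.58), larger in size than without it.

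The other 4 Sfrp1 probe sets, which report on the same gene and are no further replicates, also read lower in Delta9. Their differences were -1.23 for 1448395_at, -0.88 for 1416594_at, -1.21 for 1438620_x_at and -1.38 for 1460187_at. The groups did not overlap on 1448395_at and 1416594_at. On 1438620_x_at and 1460187_at Delta9 replicate 3, at 6.74 and 5.95, lay above WT replicate 3, at 6.62 and 5.74. On each of the 5 probe sets Delta9 replicate 3 was the highest of its group, by at least 0.94 log2 over the next.

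**Figure D3:**
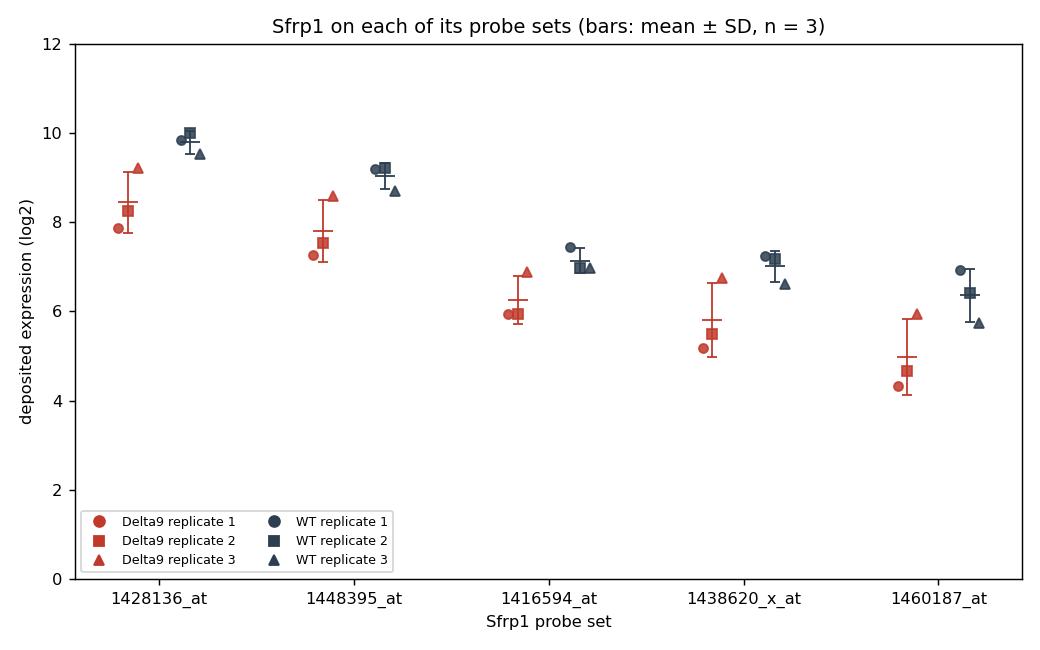
Sfrp1 expression (log2) on each of its 5 probe sets, Delta9 in red left of WT in dark blue, with the mean and SD of each group of 3. Delta9 replicates 1 and 2 lie well below WT on all 5, while Delta9 replicate 3 lies close to WT and overlaps with it on 1438620_x_at and 1460187_at.

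Sfrp2, a fibroblast-secreted Sfrp protein found in many connective tissues, read 8.14, 8.40 and 10.92 in Delta9, against 10.83, 9.63 and 9.30 in WT. Delta9 replicates 1 and 2 were the lowest of the 6, whereas Delta9 replicate 3 was the highest, so the groups overlapped. The means were 9.16 ± 1.53 in Delta9 and 9.92 ± 0.81 in WT (SD, n = 3 each), and the difference of -0.76 (SE 0.75) had a 95% interval from -2.54 to 1.01 and an adjusted p of 0.753 in limma. It moved with single arrays, from -1.65 (SE 0.42, adjusted p 0.199) without Delta9 replicate 3 to -0.26 without Delta9 replicate 1, and was -1.74 (SE 0.86, adjusted p 0.602) with the macrophage marker mean as a covariate. The size of a genotype difference in Sfrp2 was therefore not resolved by these 6 arrays.

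Sfrp4, known for its link to bone and phosphate regulation, showed the same layout at a much smaller scale. It read 4.38, 4.42 and 4.96 in Delta9, against 4.77, 4.68 and 4.81 in WT. Again Delta9 replicates 1 and 2 were lowest and Delta9 replicate 3 highest, and the difference was -0.17 (SE 0.18, 95% interval -0.60 to 0.27, adjusted p 0.783 in limma). It was -0.35 (adjusted p 0.349) without Delta9 replicate 3 and -0.06 without Delta9 replicate 1. Over the 6 arrays Sfrp4 correlated with Sfrp2 at a Pearson r of 0.88 and with Sfrp1 at 0.74, and Sfrp1 with Sfrp2 at 0.74, given as a description of arrays that share their normalization. The family did not all move together. Frzb correlated with Sfrp1, Sfrp2 and Sfrp4 at -0.69, -0.76 and -0.68, and Sfrp5 with them at 0.80, 0.28 and 0.43. Pairs beyond the Sfrp genes were as strong, such as Sfrp5 with Wif1 at 0.97 and Sfrp1 with Dkk2 at -0.86.

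Sfrp5, an Sfrp protein studied mainly in adipose tissue, read 4.42, 4.40 and 4.42 in Delta9, against 4.62, 4.65 and 4.72 in WT. The groups did not overlap and each was tight, with means of 4.41 ± 0.01 in Delta9 and 4.66 ± 0.05 in WT (SD, n = 3 each), but the difference was small, at -0.25 (SE 0.11, adjusted p 0.494 in limma). The dimmer second probe set, 1436075_at, differed by -0.16 and overlapped. Frzb, also called Sfrp3 and known from cartilage, read 3.95, 3.01 and 2.63 in Delta9, against 2.84, 2.79 and 3.26 in WT. Delta9 replicate 1 alone stood high, and the difference of 0.24 (SE 0.32, 95% interval -0.53 to 1.00) became -0.14 without it.

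Frzb, Dkk1 and Wif1 had low signal, and Wif1 was near the bottom of the scale. By mean level they ranked at percentiles 28.6, 28.8 and 2.65 of all genes. Their mean levels over the 6 arrays were 3.08, 3.09 and 2.06. All 3 lay under 3.10, Frzb and Dkk1 only just. That is the value below which 90% of the 39 measured olfactory receptor genes lay. It is a yardstick for genes that fibroblasts scarcely use and was chosen after the values were seen. The file holds no detection calls, and a fold change at this level may understate a change in RNA.

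Among the Dickkopf genes, Dkk2, which binds Lrp5 and Lrp6 and can inhibit or weakly activate the pathway depending on Kremen proteins, was the one gene of the 10 with non-overlapping values that was higher in Delta9. It read 5.85, 5.29 and 5.46 in Delta9, against 4.70, 4.86 and 5.11 in WT. The nearest values, Delta9 replicate 2 and WT replicate 3, were separated by less than the SD of either group. The means were 5.53 ± 0.29 in Delta9 and 4.89 ± 0.21 in WT (SD, n = 3 each), a 1.56-fold higher level with a difference of 0.64 (SE 0.19) and, in limma, an unadjusted p of 0.0127 and an adjusted p of 0.339. Dkk2 has a single probe set on the array. Its difference ran from 0.48 to 0.83 over the 10 alternatives that could move it, the lowest without Delta9 replicate 1 and the highest with the macrophage covariate, and it passed in 0 of the 19 tried.

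Dkk3, a Dickkopf relative abundant in mesenchymal cells, read 6.66, 6.47 and 6.06 in Delta9, against 7.19, 6.70 and 7.36 in WT. The groups did not overlap, although Delta9 replicate 1 was nearly equal to WT replicate 2. The means were 6.40 ± 0.31 in Delta9 and 7.08 ± 0.34 in WT (SD, n = 3 each), or 1.61-fold lower, and they differed by -0.68 (SE 0.23, 95% interval -1.23 to -0.14, adjusted p 0.389 in limma). Its second probe set, 1417312_at, read 5.88, 5.74 and 5.31 in Delta9, against 6.27, 5.94 and 6.61 in WT, also without overlap, with a difference of -0.63. In contrast to Sfrp1 and Sfrp2, Delta9 replicate 3 was the lowest Dkk3 sample on both probe sets. With array weights, which give less weight to arrays that vary more, the difference was -0.35.

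Dkk1, a strong inhibitor through Lrp6 and itself a known target of beta-catenin signalling, read 2.80, 3.26 and 3.32 in Delta9, against 3.08, 3.14 and 2.94 in WT. The groups overlapped and the difference of 0.07 (SE 0.15) had a 95% interval from -0.29 to 0.44 in limma. The Dickkopf relatives outside the 10, Dkk4 and Dkkl1, differed by -0.18 (SE 0.13) and -0.06 (SE 0.15), with Dkk4 dim.

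Because Dkk1 is a known target of the pathway, the RefSeq sequences before the starts of Dkk1 and Dkk2 are shown. Matches to CTTTG, a core of the TCF and LEF motif, are in capitals on either strand. No such sequence was matched for Dkk3, the Dickkopf gene of the 10 with a lower value. Such sequences were matched by symbol for 6 of the 10 genes, Sfrp2, Sfrp5, Frzb, Dkk1, Dkk2 and Wif1. The Dkk1 sequence covers the 250 bases up to the start of the gene at chr19:30549497-30549746 on the minus strand of GRCm38.p6, and the Dkk2 sequence lies at chr3:132085042-132085291 on the plus strand. Both are written 5' to 3' along the gene.
Dkk1: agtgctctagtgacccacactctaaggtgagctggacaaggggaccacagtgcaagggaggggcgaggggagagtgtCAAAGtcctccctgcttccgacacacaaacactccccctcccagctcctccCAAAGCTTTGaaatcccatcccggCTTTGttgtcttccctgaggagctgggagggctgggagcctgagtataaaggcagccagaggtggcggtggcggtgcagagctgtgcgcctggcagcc
Dkk2: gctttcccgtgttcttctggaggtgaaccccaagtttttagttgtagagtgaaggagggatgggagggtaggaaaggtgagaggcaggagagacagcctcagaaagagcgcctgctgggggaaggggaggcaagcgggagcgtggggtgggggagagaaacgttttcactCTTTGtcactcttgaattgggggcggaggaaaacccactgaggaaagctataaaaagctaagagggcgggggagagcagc
CTTTG occurred 4 times before Dkk1, with 2 adjoining matches on opposite strands, and 1 time before Dkk2. It occurred 1 time each before Frzb and Wif1 and was not found in the windows of Sfrp2 and Sfrp5. Of all 32851 RefSeq windows of this length, 48.58% hold at least 1 match on either strand, so a match is common and describes the letters only.

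Wif1, which binds Wnt ligands directly, had the lowest p of the 10 and also the lowest signal. It read 1.95, 1.82 and 1.82 in Delta9, against 2.17, 2.19 and 2.42 in WT. The groups did not overlap and the difference was -0.40 (SE 0.09), with an unadjusted p of 0.00212 and an adjusted p of 0.222 in limma. The probe set ranked at percentile 2.65 of all genes by mean level, so these values lie where the array scarcely separates a gene from background, and no fold is given.

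Kremen1, the membrane receptor of the Dickkopf proteins, read 5.64, 5.61 and 5.54 in Delta9, against 5.49, 5.85 and 5.98 in WT. The Delta9 values lay within the range of WT, and the difference of -0.18 (SE 0.16) had a 95% interval from -0.57 to 0.21 and an adjusted p of 0.735 in limma. Leaving out WT replicate 1 gave -0.32, and leaving out WT replicate 3 gave -0.08. Its 2 dimmer probe sets differed by -0.09 and -0.12. Kremen2 was not among the probe sets with 1 symbol and is not analysed here.

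The differences of Sfrp1, Sfrp2 and Sfrp4 varied with which arrays were set against each other. Within the 4 arrays with more spike-in signal, Delta9 replicates 1 and 2 against WT replicates 2 and 3, Sfrp1 differed by -1.70 (SE 0.21, adjusted p 0.0636 in limma), Sfrp2 by -1.19 (SE 0.16, adjusted p 0.0727) and Sfrp4 by -0.35 (SE 0.15, adjusted p 0.345). Between the remaining pair, Delta9 replicate 3 and WT replicate 1, which allows no test, Sfrp1 differed by -0.63, Sfrp2 by 0.09 and Sfrp4 by 0.19. Dkk2 differed by 0.58 within the 4 arrays and 0.76 in the pair, Wif1 by -0.42 and -0.35, and Sfrp5 by -0.28 and -0.20. Dkk3 and Frzb were lower in the pair, with -0.46 within the 4 arrays and -1.13 in the pair for Dkk3, and 0.46 and -0.20 for Frzb. Whether the 2 parts differ was not tested. With the spike-in split as a block, which cannot move a difference because each group has 1 array in the lower part, the SE was 0.25 for Sfrp1 (adjusted p 0.0681 in limma) and 0.26 for Sfrp2 (adjusted p 0.204). Within the 4 arrays the Gapdh measure of RNA quality also separated the genotypes, at 0.25 and 0.23 in Delta9 against 0.49 and 0.51 in WT. So did the macrophage marker mean, at 9.64 and 9.48 in Delta9 against 8.86 and 7.37 in WT. In the remaining pair that mean was 10.00 in Delta9 against 9.55 in WT. The part of RNA quality and of macrophage content in the differences within the 4 arrays was not tested.

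**Figure D4:**
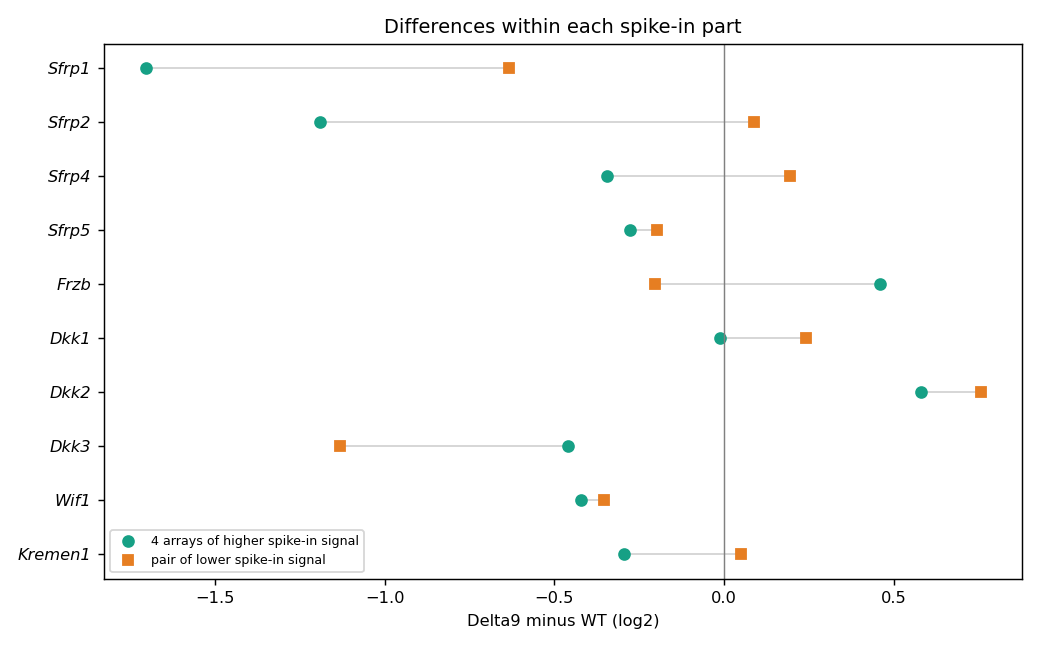
Difference between Delta9 and WT (log2) of each gene in the 4 arrays of higher spike-in signal (green circles, means of 2 and 2 samples) and in the pair of lower signal (orange squares, 1 sample each). Sfrp1, Sfrp2 and Sfrp4 lie further to the left in the 4 arrays, Dkk3 lies further to the left in the pair, and the points of Dkk2, Wif1 and Sfrp5 lie on 1 side of 0.

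RNA of the genes for the proteins on which these antagonists act was measured on the same arrays. Lrp6, the co-receptor bound by Dkk1 and Dkk2, read 7.67, 7.41 and 8.27 in Delta9, against 8.74, 8.13 and 8.45 in WT, with a difference of -0.66 (SE 0.26, adjusted p 0.438 in limma), and Lrp5 differed by 0.01 (SE 0.14) at a dim level. Of the 10 frizzled receptors, 7 had lower values and 5 were lower without overlap, with a median difference of -0.28, against 53.2% of all genes lower in value and 9.99% lower without overlap. Fzd8 differed by -1.86 (SE 0.23, adjusted p 0.0679), Fzd1 by -0.89 (SE 0.20), Fzd5 by -0.79 (SE 0.28) and Fzd2 by -0.36 (SE 0.14), and 0 of the 10 passed in limma, with 4 lower at an unadjusted p under 0.05, which 6.06% of all genes reached. The 9 Wnt ligands differed by between -0.20 for Wnt10b and 0.31 for Wnt5a, the ligand of planar cell polarity, with none separated between the groups and 0 at an unadjusted p under 0.05. Of these, 3 (Wnt2, Wnt5b and Wnt10b) lay under the level of 3.10 and 2 above the median of all genes, so low signal limits what the ligands can show.

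All 12 measured readouts and feedback genes of the pathway had lower values in Delta9 (11 of 12 after quantile normalization, where Rnf43 turned), by a median of -0.11, where 53.2% of all genes were lower, and 0 passed in limma. Of the 12, 4 (Lef1, Notum, Rnf43 and Sp5) lay under the level of 3.10. The 1 at an unadjusted p under 0.05 in limma, which 6.06% of all genes reached with a lower value, was Znrf3, a ligase that removes frizzled receptors. It differed by -0.58 (SE 0.13, adjusted p 0.222) and was dim in Delta9 at a mean of 3.08. Axin2, a feedback inhibitor and common readout, differed by -0.07 (SE 0.15). Of the 14 other modulators, 2, Notum and Apcdd1, are also counted among the readouts. Among the 14, 11 had lower values, against 53.2% of all genes, with a median of -0.24 and 0 past the threshold in limma. The 3 at an unadjusted p under 0.05 in limma, all lower, stand beside 6.06% of all genes. They included the agonists Rspo1 with -1.04 (SE 0.16), whose mean level lay under 3.10 so that its size is uncertain, and Rspo2 with -2.39 (SE 0.81). The third was Trabd2b, a membrane protease that inactivates Wnt ligands, with -0.86 (SE 0.25). Rspo2 read 5.06, 4.51 and 7.79 in Delta9, against 8.85, 7.82 and 7.87 in WT, with Delta9 replicate 3 far above the other Delta9 samples, as for Sfrp1.

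**Figure D5:**
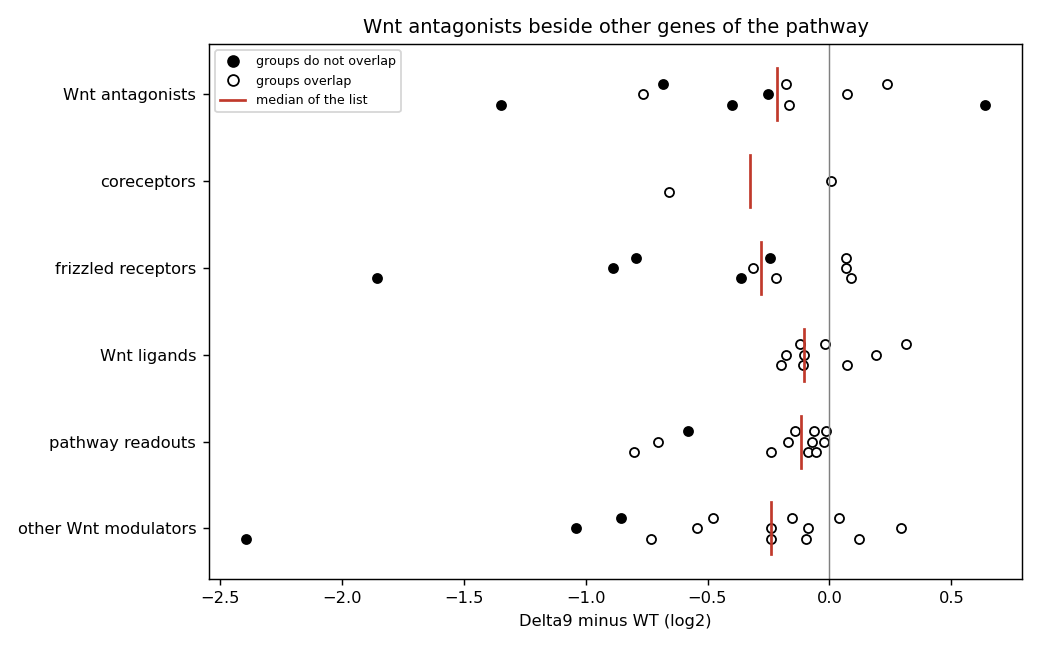
Difference between Delta9 and WT (log2) of each gene in 6 lists of the Wnt pathway, with filled points where the 3 Delta9 and 3 WT samples do not overlap and a red line at each list's median. The medians of the lists run from -0.32 for the 2 co-receptors to -0.11 for the ligands and for the readouts, and Dkk2 is the one filled point to the right of 0.

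By the rule that names the genes most like the member of lowest p, those closest to Wif1 over the 6 arrays were C130021I20Rik, Ptgfr, Zfp462, Ltbp1 and Caskin2, with a Pearson r from 0.994 to 0.996. For Sfrp1, added because of the low signal of Wif1, the closest were Cdk14, Cox6a2, Nme5, Syt11 and 9430091E24Rik, with r from 0.979 to 0.992. Cdk14, a cyclin-dependent kinase, read 7.50, 7.72 and 8.17 in Delta9, against 8.46, 8.42 and 8.33 in WT, in the same order of arrays within Delta9 as Sfrp1. These genes were picked from 18193 for their likeness over 6 arrays, so the correlations are descriptions only.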

How the data were processed

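Total RNA of 3 Delta9 and 3 WT fibroblast samples was extracted with Trizol and labelled by the manufacturer's one-cycle kit, per the labels' protocols. The authors deposited log2 values for 45101 probe sets; the log2 base was inferred from their range, and how probes were summarised and arrays normalized is not stated by the labels. Tests left out 64 control probe sets. Gene names came from the platform annotation (34945 probe sets with 1 symbol, 932 with several, 9160 unnamed here). The probe set of highest mean represented each of 18193 genes. Delta9 was compared with WT in limma 3.58.1 under R 4.3.3 (lmFit and eBayes with a variance trend), with no filter or pseudocount, and p-values were adjusted by Benjamini-Hochberg over all genes at a threshold of 0.05. The model was tested on simulated data. No chance test was made over the 10 genes.

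The 10 genes, the lists and the alternatives were chosen with earlier results of these data known. Named were the 10 genes, Lmna, the members' partners, the list genes at an unadjusted p under 0.05, and the 5 genes most like the member of lowest p; Sfrp1's nearest genes, Axin2, Wnt5a and Wnt10b were named after their values were seen. Alternatives were quantile normalization, leaving out the dimmest 25% of genes, other probe set choices, other variance models, array weights, blocks, a covariate, a threshold of 0.1 and leaving out each sample. Promoter windows came from RefSeq (GRCm38.p6). Precision is limited by having 3 arrays in each group. Figures were drawn with matplotlib 3.10.9.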

Additional observations from a re-analysis of the deposited data

How the results depend on the processing

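Of the 10 Wnt antagonists, 0 passed in limma as reported (4 at an unadjusted p under 0.05). This count was 1, Sfrp1, with array weights (-1.70, adjusted p 0.0291), and 0 to 1 when single samples were left out, the 1 again being Sfrp1 without Delta9 replicate 3. Over all genes 11 passed, and the count was 139 with array weights, 149 with the spike-in split as a block, 2 with the macrophage marker mean as a covariate, 48 at a threshold of 0.1, 61 in the 4 arrays with more spike-in signal (an alternative chosen after seeing the data), and 1 (without WT replicate 2) to 81 (without Delta9 replicate 3) when single samples were left out; the cause was not tested. With the replicate block 0 genes passed in limma (1348 at an unadjusted p under 0.05) and 0 of the 10 antagonists. Same-numbered samples deviated from their group means with r of -0.40, 0.17 and -0.43. No sample correlated best with its own number, and Delta9 replicate 3 went best with WT replicate 1 (r 0.59). These deviations balance out within each group by construction, so they cannot decide whether the numbers pair the samples. Sfrp1, Sfrp5, Dkk2, Dkk3 and Wif1 had 1 direction in all the 10 or 11 alternatives that could move a difference. The groups of these genes do not overlap, so leaving out a sample, array weights and the 4 arrays could not have reversed their sign. Sfrp2 and Sfrp4 also kept 1 direction, although both were higher in Delta9 in the single pair of lower spike-in signal (0.09 and 0.19). Wif1 was left out with the dimmest 25% of genes. Dkk1 changed sign with array weights (-0.011), the macrophage covariate (-0.028) and within the 4 arrays (-0.010), and ran from -0.024 to 0.24 with single samples left out. Kremen1 changed sign with the macrophage covariate (0.044). Frzb ran from -0.14 (without Delta9 replicate 1) to 0.52 with single samples left out. These signs belong to differences within their error, and the cause was not tested. Low signal limits Frzb, Dkk1 and Wif1.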
